A study of Mus musculus with 5 samples.

Results

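Axon guidance ligand and receptor genes were measured cell by cell in spiral ganglion neurons of the mouse, which link cochlear hair cells with the brainstem. The group was set by gene name alone and holds 63 of the 14715 genes measured, 31 ligands and 32 receptors. It consists of 6 secreted and 13 membrane semaphorins, 9 plexins, 2 neuropilins, 4 ephrin-A and 3 ephrin-B ligands, 8 EphA and 5 EphB receptors, 3 Slits, 2 Robo receptors, 2 netrins and 6 netrin receptors. Robo3 and Ntn1 also fit the naming rule but were not among the genes measured. Plxna4os1, an antisense RNA that only shares the start of a plexin symbol, was left out. Neurons came from cochleae of mice of both sexes at postnatal days 30 to 33, were dissociated with enzymes and were sorted for tdTomato. The 2 control samples had the genotype bhlhb5-Cre/+; Ai14/+ and the 3 CKO samples bhlhb5-Cre/+; Ai14/+; Runx1F/F, so both groups carried the Cre transgene and the Ai14 tdTomato reporter and only the CKO carried the floxed alleles of the transcription factor gene Runx1. Ablation was embryonic and in the ganglion neurons, per the labels, and the comparison is of adult neurons.

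Axon guidance cues steer growing axons by attraction or repulsion, and many stay on in adult neurons, where they bear on synapses and on contact with glia. Semaphorins act through plexins, with neuropilins as co-receptors for most secreted semaphorins. Ephrins are membrane-bound ligands of the Eph receptor tyrosine kinases and can signal back into the cell that carries them. Slits act through Robo receptors, and netrins through Dcc, Neo1 and the Unc5 family. In the developing cochlea, ephrin and semaphorin receptors take part in guiding the axons of spiral ganglion neurons to hair cells.

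The files held 1954 neurons, 1070 control and 884 CKO, with 10379 to 100856 unique molecular identifiers (UMIs, 1 for each captured RNA molecule) a cell. Levels are mean UMIs per 10000 UMIs of a cell, molecules tagged at their 3' end, so gene length does not enter the unit. Each cell was labelled with its genotype and not with its sample. Each genotype is therefore 1 pool without replicates, no test between genotypes or classes was possible, and intervals are exact 95% intervals for counting error only. Barcode order splits the cells into 5 column stretches, numbered 1 to 5, of which 2 and 5 are control and 1, 3 and 4 are CKO. Their number equals that of the samples, but they are not labelled as samples and serve here only to show spread; 1 barcode occurred in both genotypes.

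Classes were set by UMIs per 10000 of 3 genes taken in order: type II at 1 or more of Dupd1, then type Ic at 3 or more of Lypd1, then type Ia at 150 or more of Calb2, and type Ib for the rest. Control split into 242 type Ia, 395 type Ib, 314 type Ic and 119 type II neurons, and CKO into 384, 216, 132 and 152. Type II made up 7.99% to 19.1% and type Ia 10.8% to 53.2% of a stretch, and CKO stretch 4, with 12.1% type Ia, lay near control stretch 2 rather than the other CKO stretches. Lists of markers the rule did not use had their highest sum in the class they name in control, but not every marker did. The type Ia markers Rxrg, Pcdh20 and B3gat1 summed to 2.96 in type Ia, 0.122 in type Ic and 2.83 in type II. Rxrg and Pcdh20 were higher in type II (0.565 and 2.25) than in type Ia (0.507 and 0.438). The type Ic markers Pou4f1, Grm8 and Runx1 summed to 3.83 in type Ic, 1.92 in type Ib and 0.231 in type Ia. Runx1 had 1.84 in type Ic and 1.73 in type Ib. The type II markers, led by Ngfr, Th and Plk5, summed to 21.5 in type II and at most 0.989 elsewhere. Among them, Etv4 had only 0.00682 in type II, and Smad3 had 0 there and 0.00823 to 0.0175 in the type I classes. The type Ib markers, Calb1 first, summed to 2.65 in control type Ib. In CKO the names were less clear by some markers: Calb1 had 1.90, 2.56 and 1.46 in types Ia, Ib and Ic, against 0.283, 1.31 and 0.0894 in control. B3gat1 had 2.11, 1.48 and 1.04, against 2.02, 0.693 and 0.0820. Other markers still parted the classes in CKO, with Ttn at 0.0954, 0.792 and 0.0645 and Grm8 at 0.0152, 0.127 and 0.892. The Calb2 level lay within 1.5-fold of its cut in 43.7% of CKO and 22.1% of control type Ia and Ib neurons, so types Ia and Ib are ranges of 1 measure. Runx1 RNA itself had a level of 1.23 in control and 1.68 in CKO, and of 0.223 and 1.65 in type Ia; reads of the 3' end do not show whether the floxed part was removed.

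Of the 63 genes, 34 reached a level of 0.2 in a genotype or a class, 16 ligands and 18 receptors. The other 29 stayed below it in every class: Efna1, Efna2, Efna4, Efnb3, Epha2, Epha3, Epha6, Epha10, Ephb3, Ephb4, Ephb6, Ntn3, Ntn4, Plxna3, Plxnb1, Plxnb2, Plxnb3, Plxnd1, Sema3c, Sema4a, Sema4b, Sema4d, Sema4f, Sema5b, Slit1, Slit2, Slit3, Unc5a and Unc5c. Just under that level were Unc5c, with a highest class mean of 0.190, and Sema4f, with 0.182. Genes at this level that no contrast between control classes or genotypes called were the plexin gene Plxna2, highest in CKO type Ic at 0.256, and the membrane semaphorins Sema4g, Sema6a, Sema6b, Sema6c and Sema6d, beside those given later. Their class means ran from 0.0282 to 0.254 for Sema4g, from 0.241 to 0.426 for Sema6a, from 0.182 to 0.581 for Sema6b, from 0.0471 to 0.228 for Sema6c and from 0.0979 to 0.204 for Sema6d. Unc5d, a netrin receptor gene, had 0.523 to 1.03 across the classes. Sema4g was lower in type II than in type I of CKO, at 0.0282 against 0.228.

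No Slit gene and neither of the netrin genes measured, Ntn3 and Ntn4, reached 0.2, whereas the receptor genes Robo1, Robo2, Dcc, Neo1, Unc5b and Unc5d did. Ntn1 was not among the genes measured, so its level is unknown here.

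**Figure D1:**
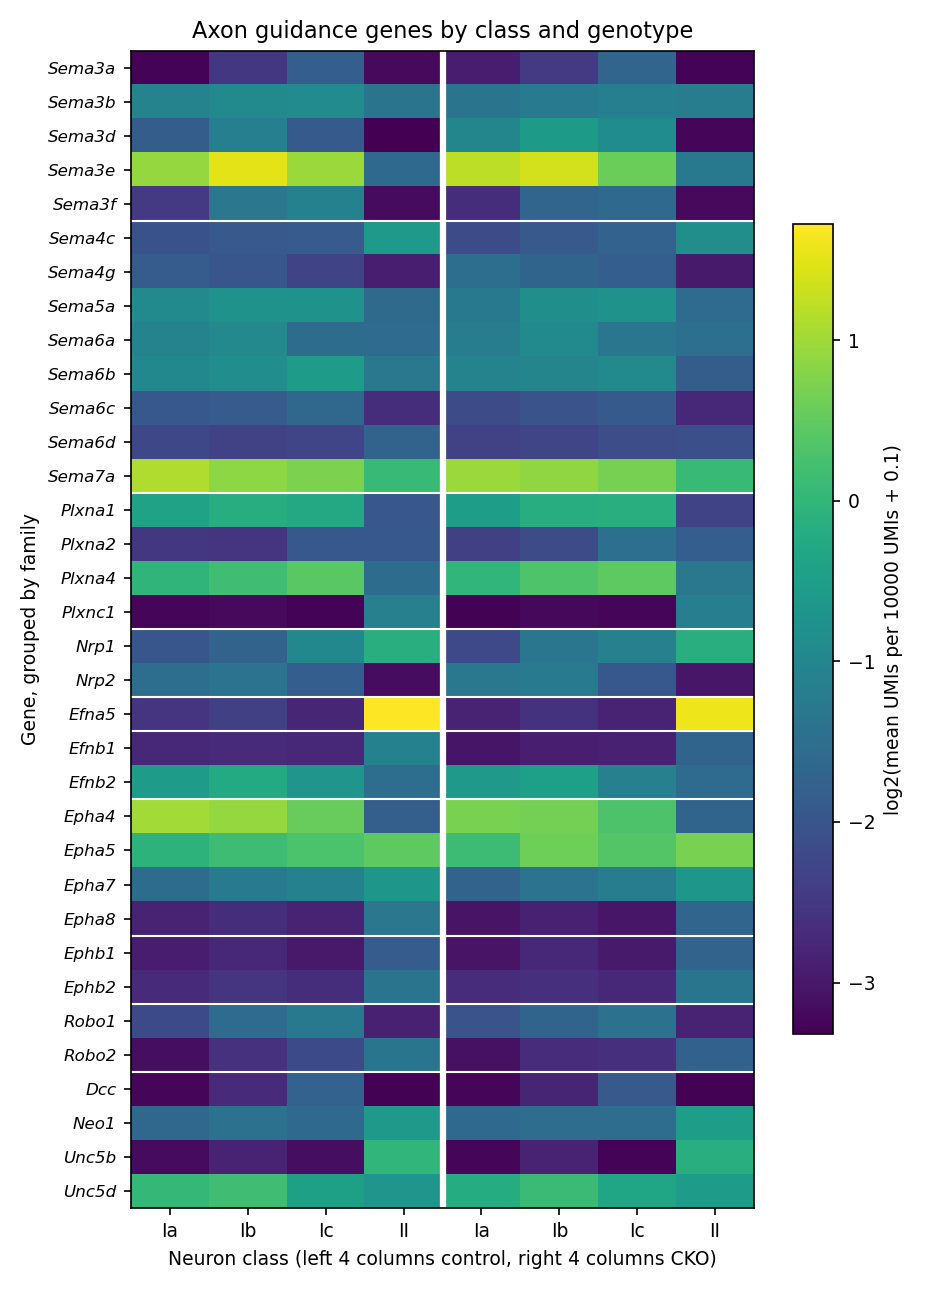
Heat map of the 34 genes that reached 0.2 UMIs per 10000 (rows, grouped by family) in the 4 classes of control (left) and CKO neurons (right); colour is log2 of the mean level plus 0.1. The type II columns stand apart in both genotypes, with Efna5 at 3.20 in control and 2.90 in CKO, and Epha4 at 0.187 and 0.209.

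Type II neurons, the sparse class that contacts outer hair cells, held a set of axon guidance genes different from that of type I neurons. In control, 18 of the 28 genes at 0.2 in type II or type I were at least 2-fold apart on the log2(level + 0.1) scale, 9 higher and 9 lower in type II. Over all genes the same rule called 20.5%, 9.94% higher and 10.6% lower. A gene that is high in 1 of the 2 types passes the level filter through that type, which raises both shares. With the filter set on the mean of both types, 10 of 19 genes were 2-fold apart, against 19% of all genes. Where a gene had to reach 0.2 in both types, 4 of 13 were called, Nrp1 higher and Efnb2, Plxna4 and Sema3e lower, against 13.4% of all genes. The median log2 difference was -0.42 over the 28 genes, 0.02 over all genes that passed the same filter and -0.02 over the 63 genes with no filter. The CKO pool, which shares no cells with control, had 17 of 26 genes 2-fold apart (20.1% of all genes), or 5 of 13 at 0.2 in both types (13.5%). Of the 18 control genes, 14 were also called in CKO in the same direction and all 18 had the same sign there. The same overlap over all genes was not counted, so whether this share is unusual is not known.

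Efna5, which encodes ephrin-A5, a ligand of EphA receptors, had the widest contrast on that scale. Its level by stretch in type II neurons was 2.82, 3.08, 3.20, 2.19 and 3.38 in stretches 1 to 5, and in type I neurons 0.05, 0.08, 0.06, 0.02 and 0.07. Every stretch held far more in type II, and the genotypes overlapped. The control levels were 3.20 in type II and 0.0718 in type I (987 and 262 UMIs, ratio of UMI rates 46.4, interval 40.5 to 53.4), and the CKO levels 2.90 and 0.0479. After every cell was thinned to 10000 UMIs, 94.1% of control type II neurons (interval 88.3 to 97.6) held an Efna5 UMI, against 4.46% to 6.58% in the control type I classes. Glia-poor control type I neurons held one in 2.05% and glia-rich ones in 7.39% of cells, at levels of 0.0298 and 0.0954, and the source of these UMIs was not tested. Before thinning, which dropped no cell, these shares were 99.2% and 15.6% to 28.1%, at median depths of 25326 UMIs in type II and 37312 to 48726 in the type I classes. Efna5 lies on the minus strand of chromosome 17 from 62604184 to 62881317 (GRCm38, the build also called mm10). The 250 bases before its RefSeq start are shown because no other gene of the group parted the classes so widely on this scale. They lie at chr17:62881318-62881567, are 74.8% G or C and hold 32 CG pairs.
Efna5: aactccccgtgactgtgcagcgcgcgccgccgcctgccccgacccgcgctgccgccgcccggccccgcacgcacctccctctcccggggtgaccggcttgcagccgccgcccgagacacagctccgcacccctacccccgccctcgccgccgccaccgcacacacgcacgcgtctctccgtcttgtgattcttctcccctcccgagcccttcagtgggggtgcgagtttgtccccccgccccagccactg

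Unc5b, a netrin receptor linked to repulsion, followed the same pattern. It had 0.896 in type II and 0.0233 in type I control neurons (272 and 74 UMIs, rate ratio 45.3, 34.9 to 59.4), and 0.813 and 0.0159 in CKO. By stretch its type II level lay between 0.77 and 0.93. Plxnc1, the plexin that binds Sema7a, had 0.357 and 0.00667 in control (110 and 23 UMIs, rate ratio 59.0, 37.4 to 96.9). Its type II level was 0.34, 0.36, 0.37, 0.28 and 0.36 by stretch, so it too stayed close across stretches and genotypes. Sema7a, a membrane-anchored semaphorin, was read in all classes, at 0.948 in type II and 1.75 in type I of control. Thinned neurons held Plxnc1 in 27.7% of control type II cells and in at most 0.826% of the control type I classes, of which type Ic had 0 of 314 cells, which allows a share of up to 0.955%. Before thinning these were 53.8% and at most 2.53%.

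The other genes higher in type II were Nrp1 (0.796 against 0.259 in type I), a co-receptor of secreted semaphorins, Sema4c (0.558 against 0.162), Efnb1 (0.364 against 0.0493), an ephrin-B ligand, the Eph receptor genes Epha8 (0.299 against 0.0479) and Ephb2 (0.283 against 0.0623), and the Slit receptor gene Robo2 (0.292 against 0.0693). Their rate ratios ran from 3.30 for Nrp1 (2.86 to 3.79) to 7.58 for Efnb1 (5.92 to 9.66). In CKO, Neo1 (0.604 against 0.24) and Ephb1 (0.205 against 0.0297) also passed 2-fold. Their control values were 0.567 against 0.247 for Neo1, short of 2-fold on this scale, and 0.178 against 0.0368 for Ephb1, below the level filter. Robo2 had 0.197 in CKO type II neurons, just under the filter.

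The genes lower in type II included a receptor and a ligand found in most type I neurons. Epha4, an Eph receptor that binds both ephrin classes, had 0.187 in type II and 1.69 in type I control neurons (58 and 6287 UMIs, rate ratio 0.114, 0.0863 to 0.147). A thinned UMI of it was found in 15.1% of type II neurons and in 70.4% to 82.2% of the control type I classes, or 28.6% and 97.1% to 99.0% before thinning. Sema3e, a secreted semaphorin that can bind Plxnd1 without a neuropilin, had 0.228 and 2.20 (69 and 7919 UMIs). Its type II level was 0.20 to 0.31 and its type I level 1.96 to 2.50 across the 5 stretches, so the types did not overlap. Plxnd1 itself stayed below 0.2 in every class.

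The semaphorin receptor genes Plxna4 (0.245 against 1.07) and Plxna1 (0.16 against 0.731) were lower in type II as well. Neuropilins went opposite ways, since Nrp2 had 0.013 in type II and 0.242 in type I (4 and 889 UMIs) while Nrp1 was higher. Efnb2 (0.253 against 0.628), Robo1 (0.0386 against 0.233) and Sema3f (0.0107 against 0.266) completed the lower set with Sema3d. Rate ratios in the lower set ran, apart from Sema3d, from 0.0544 for Sema3f (0.0148 to 0.140) to 0.434 for Efnb2 (0.343 to 0.542). Sema3d had 0 UMIs in the 119 control type II neurons, which makes its UMI rate in type I at least 22.7-fold higher when set against 3 counts over the whole type II group. In CKO, Sema3f and Robo1 did not reach 0.2 in either type and Efnb2 missed 2-fold. The EphA receptor genes Epha5 and Epha7 were less than 2-fold apart in control, with Epha5 at 1.28 in type II and 1.01 in type I and Epha7 at 0.539 and 0.314.

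**Figure D2:**
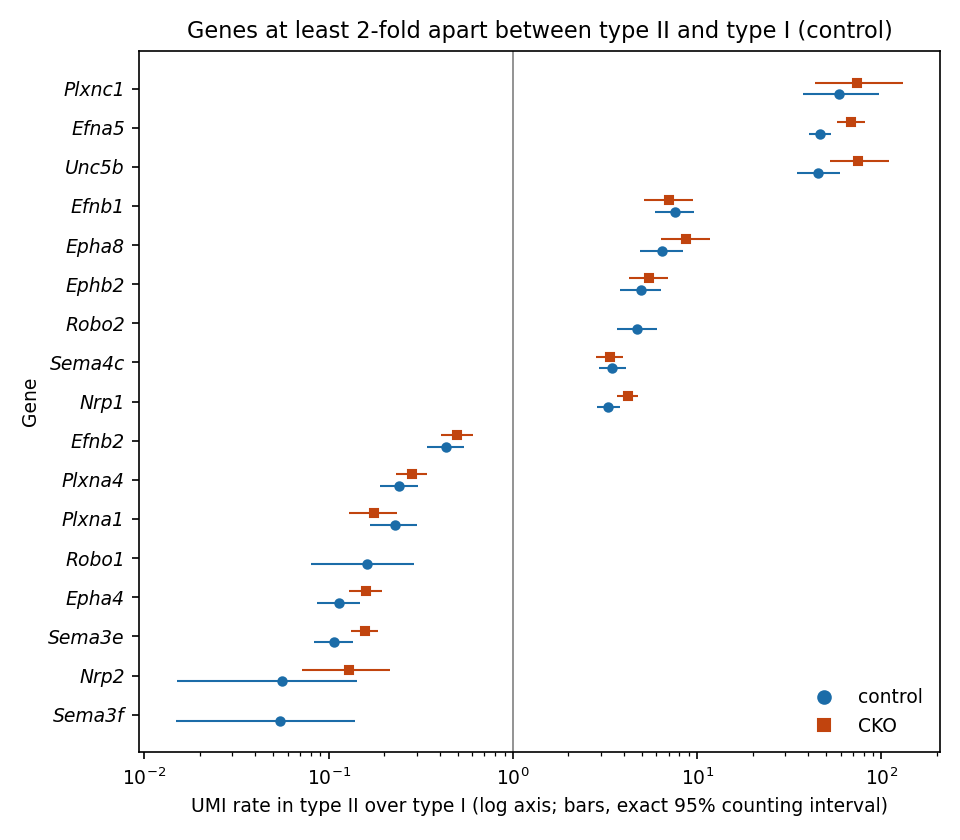
UMI rate in type II over type I neurons (log axis) for the 17 genes at least 2-fold apart in control with UMIs in both types; circles are control, squares CKO and bars exact 95% counting intervals. Plxnc1, Efna5 and Unc5b lie at 59.0, 46.4 and 45.3 in control, 8 genes lie below 1, and CKO squares are drawn for the 14 genes that reached 0.2 in either type there.

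Glial markers also differed between type II and type I neurons, and the control contrast was also counted in cells that held little of them. The types were not matched in those cells, with a median glial level of 1.83 in type II and 0.365 in type I. How far glial RNA bears on the contrast was not tested. The satellite glia list (Apoe, Fabp7, Ednrb, Sparc and Glul, 5 of 5 in the matrix) summed to 19.0 in control type II and 1.67 to 1.94 in the type I classes, and the Schwann list (8 of 8) to 14.0 and 22.9 to 28.1. Apoe led the satellite sum, at 12.3 in control type II and 0.124 to 0.209 in the type I classes, whereas Glul was lower in type II, at 0.852 against 1.16 to 1.22. Among glia-poor control neurons, those under 5 UMIs per 10000 of both lists, 18 of 26 genes were 2-fold apart (23% of all genes), with Efna5 at log2 4.75, Unc5b at 3.01 and Plxnc1 at 2.21. Ephb2, at 0.225 against 0.0626, fell just short of 2-fold there and Neo1 passed it, at a rate ratio of 2.86. Myo7a, the 1 of 3 hair cell markers in the matrix, had 0.254 in control type II and 0.00346 to 0.0167 in the type I classes. The 2 of 4 macrophage markers in the matrix summed to 0.0520 in control type II and at most 0.00172 in the type I classes. The part of either in the type II contrast was not tested.

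Among type I neurons the classes differed in fewer of these genes. Type Ia, the class with the most Calb2, and type Ic, the class with Lypd1, were at least 2-fold apart in 3 of 20 genes in control, where 3.05% of all genes were, and all 3 were lower in type Ia. All 3 reached 0.2 only in type Ic; of the 14 genes at 0.2 in both classes, 0 were called (1.21% of all genes). Dcc, the attractive netrin receptor, had 0.00625 in type Ia and 0.201 in type Ic (7 and 223 UMIs, rate ratio 0.0324, 0.0129 to 0.0679). Type Ib lay between them at 0.0530. Dcc reached at most 0.012 in type Ia in any stretch and ranged from 0.07 to 0.24 in type Ic, so those ranges did not overlap.

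Nrp1 had 0.154 in type Ia and 0.411 in type Ic of control (174 and 472 UMIs, rate ratio 0.380, 0.318 to 0.454), and 0.116 and 0.359 in CKO. Across stretches it ran from 0.08 to 0.27 in type Ia and from 0.23 to 0.52 in type Ic, which overlap through CKO stretch 4. Sema3f, a secreted semaphorin whose main co-receptor is Nrp2, had 0.0810 and 0.368 in control (87 and 400 UMIs, rate ratio 0.224, 0.176 to 0.284), and 0.0577 and 0.228 in CKO. It was also the 1 gene of 19 at least 2-fold apart between types Ia and Ib in control, at 0.0810 against 0.300 (0.952% of all genes). Without stretch 5, that Ia to Ib contrast moved from log2 -1.14 to -0.79. Between types Ib and Ic of control, 0 of 21 genes were 2-fold apart (0.718% of all genes).

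In CKO, 3 of 23 genes were lower in type Ia than in type Ic (2.08% of all genes), namely Nrp1, Sema3f and Sema3a. Sema3a, the classical growth cone repellent that acts through Nrp1, had 0.0308 in type Ia and 0.215 in type Ic of CKO (60 and 128 UMIs, rate ratio 0.142, 0.103 to 0.195). In control it had 0.00406 and 0.184, the latter under the level filter. The CKO counts for type Ia against type Ib and for type Ib against type Ic were 0 of 20 and 0 of 23, with 0.52% and 0.483% of all genes called.

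Glial RNA was present in many sorted neurons: 62.4% of control and 58.1% of CKO cells held 5 or more UMIs per 10000 of the Schwann and satellite lists. In control type I neurons, 3 of 21 genes were at least 2-fold higher in these glia-rich cells than in glia-poor ones (2.54% of all genes). They reached 0.2 only in the glia-rich cells, and 0 of the 16 genes at 0.2 in both groups of cells were called (0.327% of all genes). Sema5a, a membrane semaphorin with thrombospondin repeats, had 0.752 in 609 glia-rich cells and 0.00129 in 342 glia-poor cells, the latter from 2 UMIs (rate ratio 426, 118 to 3519). Thinned cells held it in 47.1% and 0%, where 0 of 342 allows a share of up to 0.877%.

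Sema3b, a secreted semaphorin, followed at 0.627 and 0.0550 (rate ratio 11.1, 8.67 to 14.4). Sema4c, a membrane semaphorin that binds Plxnb2, had 0.238 and 0.0272. The same 3 genes were called in CKO type I neurons (2.72% of all genes). In type II neurons, Sema3b and Sema5a were called in control and CKO (2.29% and 2.7% of all genes), but Sema4c was not: it had 0.449 in glia-poor and 0.668 in glia-rich control cells. Most of the pooled level of Sema5a and Sema3b was therefore read in cells that also carried glial RNA, whereas glia-poor type II neurons held Sema4c. Below the level filter, Sema6d had 0.164 in glia-rich and 0.000511 in glia-poor control type I neurons (413 UMIs and 1 UMI), Ephb6 0.117 and 0.00424 (284 and 4 UMIs), and Plxnd1 0.0886 and 0 (204 and 0 UMIs). Sema6d and Ephb6 were more than 2-fold apart on the log2(level + 0.1) scale, at 1.39 and 1.06, and Plxnd1 was not, at 0.92.

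**Figure D3:**
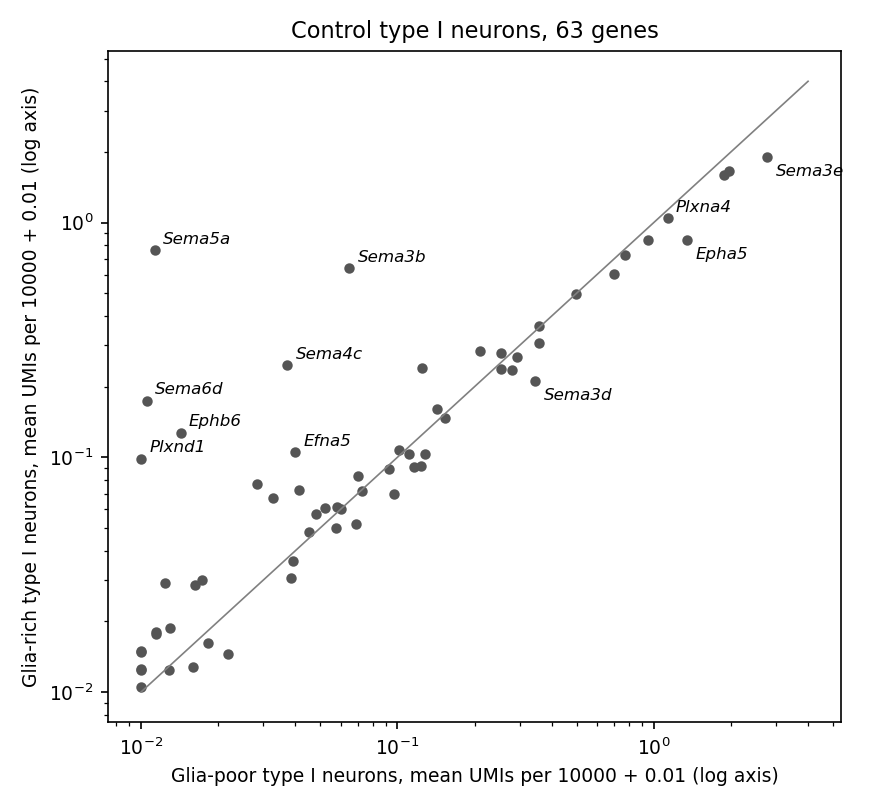
Mean level in glia-rich (y) against glia-poor (x) control type I neurons, in UMIs per 10000 plus 0.01 on log axes, with 1 point for each of the 63 genes and the line of equal levels. Sema5a, at 0.752 against 0.00129, and Sema3b, at 0.627 against 0.0550, lie far above that line.

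The genotypes were compared next, over all neurons and within each class. Few axon guidance genes differed between the genotype pools: 1 of 21 was at least 1.5-fold apart over all neurons (0.898% of all genes), 1 of 17 in type Ia (0.549%), 0 of 20 in type Ib (1.12%), 1 of 23 in type Ic (1.34%) and 1 of 24 in type II (0.947%). The genes called over all neurons and in types Ia and Ic reached 0.2 in only 1 of the genotypes. Among genes at 0.2 in both genotypes, 0 of 19 were called over all neurons (0.747% of all genes), 0 of 15 in type Ia (0.43%), 0 of 19 in type Ib (0.851%), 0 of 17 in type Ic (0.923%) and 1 of 19 in type II (0.628%). The log2 differences over all neurons ran from -0.67 to 0.57, with a median of -0.08 against -0.03 for all genes. Schwann markers summed to 24.2 in control and 21.2 in CKO, and their part in these differences was not tested.

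Sema3f was the gene lower in CKO over all neurons. Its level was 0.282 and 0.202 in control stretches 2 and 5, and 0.0796, 0.0991 and 0.221 in CKO stretches 1, 3 and 4. CKO stretch 4 lay between the control stretches, so the genotypes overlapped. The pools had 0.238 and 0.113 (911 and 395 UMIs, rate ratio 0.471, 0.418 to 0.531, log2 -0.67), and log2 -0.83 without stretch 4. Type Ia neurons, which hold little Sema3f, made up 22.6% of control and 43.4% of CKO neurons. With CKO classes weighted as in control, the log2 difference was -0.38, short of 1.5-fold. Class make-up, stretch and genotype cannot be told apart here, since classes were less clear in CKO by some markers and CKO stretch 4 had 12.1% type Ia. The unweighted difference of the pools was -0.52 without stretch 1 and -0.50 without stretch 2. Within classes it was -0.35 in type Ib and -0.51 in type Ic.

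Sema3d, a secreted semaphorin gene next to Sema3a and Sema3e on chromosome 5, was higher in CKO type Ia and type Ic neurons. In type Ia its level was 0.41 and 0.12 in control stretches 2 and 5, and 0.54, 0.30 and 0.18 in CKO stretches 1, 3 and 4, so the genotypes overlapped. The type Ia pools had 0.182 in control and 0.395 in CKO (176 and 754 UMIs, rate ratio 2.55, 2.16 to 3.02, log2 0.81). That difference was 0.46 without stretch 1 and -0.045 without stretch 5, the control stretch with the least Sema3d. Of the type Ib markers, Calb1 in type Ia had 0.283 in control and 1.90 in CKO. Ttn had 0.0528 and 0.0954 there, and Lrrc52 0.0221 and 0.0154. Control type Ib held Sema3d at 0.352. Whether type Ia held like cells in both genotypes, and the part of this in the Sema3d difference, was not tested.

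In type Ic, Sema3d had 0.21 and 0.11 in the control stretches and 0.86, 0.43 and 0.10 in the CKO stretches. CKO stretch 4 thus held no more than control while the other CKO stretches held more. The pools had 0.171 and 0.447 (172 and 270 UMIs, rate ratio 3.18, 2.62 to 3.87, log2 1.01), with log2 0.20 without stretch 1 and 1.57 without stretch 4. Type Ib had 0.352 and 0.567 (log2 0.56), and all neurons 0.221 and 0.378 (log2 0.57), both just under 1.5-fold.

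**Figure D4:**
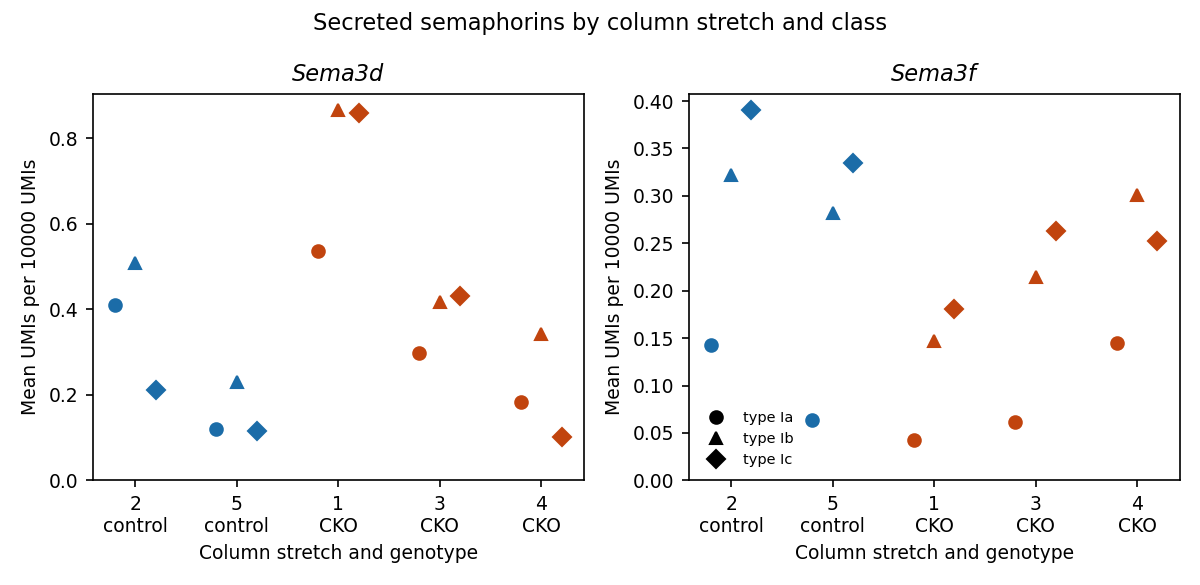
Mean level (UMIs per 10000 UMIs, y) of Sema3d (left) and Sema3f (right) in type Ia (circles), type Ib (triangles) and type Ic (diamonds) neurons of each column stretch (x; 2 control, blue, and 3 CKO, red). Stretches are not labelled samples and carry no error bar; within each class the control and CKO stretches of Sema3d overlap, as in type Ia, where control lies at 0.41 and 0.12 and CKO at 0.54, 0.30 and 0.18.

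In type II neurons, Efnb1 had 0.43 and 0.26 in control stretches 2 and 5 and 0.14, 0.23 and 0.32 in CKO stretches 1, 3 and 4, which overlap. The pools had 0.364 and 0.208 (110 and 86 UMIs, rate ratio 0.572, 0.426 to 0.765, log2 -0.59), and log2 -0.21 without stretch 2 and -0.41 without stretch 1. None of the other genes higher in type II passed 1.5-fold between the pools. Efna5 had 3.20 in control and 2.90 in CKO, Unc5b 0.896 and 0.813, and Plxnc1 0.357 and 0.348. Larger differences were those of Robo2 (0.292 and 0.197, rate ratio 0.667, 0.489 to 0.908), Epha8 (0.299 and 0.214) and Sema4c (0.558 and 0.459). Nrp1 (0.796 and 0.807) and Ephb2 (0.283 and 0.290) were not lower in CKO. Epha4 differed by log2 -0.31, -0.25 and -0.22 in types Ia, Ib and Ic, each under 1.5-fold.

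The windows before the RefSeq starts of Sema3d and of its neighbour Sema3a are shown. Sema3d was called between genotypes, whereas Sema3a was not (log2 0.15 in type Ic) and was called only between types Ia and Ic of CKO. A RUNX motif was looked for because Runx1 encodes a DNA-binding factor. The windows lie on the plus strand of GRCm38, at chr5:12382916-12383165 and chr5:13396534-13396783. Capitals mark TGTGGT, a form of the RUNX motif, or its reverse complement ACCACA. Other forms of the motif were not looked for.
Sema3d: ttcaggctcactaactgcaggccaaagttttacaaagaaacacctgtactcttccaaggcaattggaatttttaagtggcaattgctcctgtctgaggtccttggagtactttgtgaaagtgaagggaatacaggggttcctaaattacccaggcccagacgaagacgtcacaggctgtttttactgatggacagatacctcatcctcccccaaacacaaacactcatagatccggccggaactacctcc
Sema3a: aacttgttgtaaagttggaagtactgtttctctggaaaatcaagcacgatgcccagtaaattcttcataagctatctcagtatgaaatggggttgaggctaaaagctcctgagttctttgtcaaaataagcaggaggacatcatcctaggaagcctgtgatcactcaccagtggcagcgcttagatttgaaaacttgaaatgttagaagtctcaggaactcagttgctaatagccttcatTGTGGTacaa

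Sema3a held this form of the motif, beginning 10 bases before the start, and these letters were not in the Sema3d or Efna5 windows. The windows of Efnb1, called between genotypes, and Nrp1, called between types Ia and Ic, did not hold them either. Nor did the window of Sema3e, the other neighbour of Sema3d. Sema3f and Dcc, also called, had no window to read. Over both strands, 8 of the 69 windows of the 54 genes with an entry held it (11.6%), against 4614 of 32851 windows of all genes (14.0%). A match is a description of the letters and not of binding. The Sema3d window was 46.8% G or C with 4 CG pairs and the Sema3a window 40.8% with 2.

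Other genes of the pathway came from a list of 69 adaptors, co-receptors and cytoskeletal effectors. Between genotypes over all neurons, 0 of 43 at level were higher in CKO and 1 was lower: Pak1, a kinase downstream of Rac and Cdc42, at 2.03 in control and 1.25 in CKO, where 0.898% of all genes were called. Pak1 had 2.37 and 1.75 in control stretches 2 and 5 and 0.912, 1.06 and 2.45 in CKO stretches 1, 3 and 4, so CKO stretch 4 lay above both control stretches. It was called in no class, with 1.07 in control and 0.999 in CKO type Ia, 2.24 and 1.66 in type Ib, and 3.19 and 2.49 in type Ic. Within classes, L1cam in type Ic (0.452 against 0.264) was the 1 gene called. Between type II and type I of control, 8 of 46 were higher and 6 lower in type II, where 9.94% of all genes were higher and 10.6% lower. The higher ones included Flrt3 (0.524 against 0.0390), an Unc5 and Robo partner, L1cam (1.62 against 0.466), a neuropilin partner, and Mical1 (0.808 against 0.0795), an actin-oxidising enzyme that binds plexins. The lower ones included Lingo1 (0.0244 against 1.08), Limk1 (0.114 against 1.69), the cofilin kinase, and Pak1 (0.219 against 2.25).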

How the data were processed

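Single-cell 3' RNA libraries (10x Genomics, v3 chemistry, per the labels) came from 2 control and 3 CKO samples. Cell Ranger, Seurat and mm10 are named per the submitters' processing notes, and versions are not given in the sources used here. The deposited table holds natural log values, log of 1 plus the share of a cell's UMIs times 100000; whole UMIs were recovered for 100% of values above 0, within 0.01. The deposited cell table gives genotype and no sample, so each genotype was 1 pool and nothing was tested. No doublet step is stated and none was applied here.

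Levels are mean UMIs per 10000 UMIs of a cell. Differences are log2 of (level + 0.1) ratios for genes at 0.2 or more in either group, called at 1.5-fold between genotypes and 2-fold between classes. Rate ratios carry exact conditional 95% intervals and shares Clopper-Pearson intervals, for counting error only; a count of 0 was set at 3 counts. Shares used cells thinned to 10000 UMIs. The steps were tested on simulated data, with Python 3.11.15, numpy 2.4.6, pandas 2.3.3 and scipy 1.17.1. All genes of the group are accounted for: those at 0.2 in a pool or class have values and the rest are named. The rule asked for UMIs, interval and stretches of each called gene; in the type II contrast these are printed for the leading genes and the others have levels and a range of ratios. The group, classes and lists were chosen with earlier results of these data known. Coordinates are from GENCODE M21 and promoter sequences from RefSeq (GRCm38.p6), with an entry for 54 of 63 genes. Alternatives changed the pseudocount, level filter, averaging, depth, class cuts, glial RNA and column stretches.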

Additional observations from a re-analysis of the deposited data

How the results depend on the processing

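No paired analysis was possible because cells cannot be given to numbered samples. Numbers below count genes past the fold, and the cause of each move was not tested. They are given without the number of genes at level and the share over all genes. A moved count therefore does not tell these genes from all genes. With a pseudocount of 0.5 the counts were 0 for CKO against control in all neurons, type Ia, type Ic and type II, 0 for type Ia against Ic and Ia against Ib, and 5, in place of 18, for type II against type I. With a level filter of 0.5 the same comparisons gave 0, except 9 for type II against type I. With a pseudocount of 0.02, CKO against control gave 2 in all neurons, 1 in type Ib, 3 in type Ic and 2 in type II, and type Ib against Ic gave 1. From pooled UMI rates, all neurons gave 2, type Ib 1 and type Ia against Ic 1. Thinning to 10000 UMIs gave 2 in type Ic and 4 in type II, and glia-poor cells 3 and 2. Higher class cuts gave 1 in type Ib, 0 in type II and 1 for type Ib against Ic. A level filter on the mean of both groups, chosen after seeing the data, gave 0 in all neurons, 0 for type Ia against Ib and 10 for type II against type I. A level filter in both groups, also added, gave 0 in all neurons, type Ia and type Ic, 0 for type Ia against Ic, Ia against Ib and glia-rich cells, and 4 for type II against type I. Glia-rich against glia-poor cells, also chosen after seeing the data, gave 5 with no level filter. Leaving out each column stretch in turn gave 0 to 2 in all neurons, 0 to 1 in type Ia, 0 to 3 in type Ib, 0 to 5 in type Ic, 0 to 2 in type II, 17 to 18 for type II against type I, 2 to 4 for type Ia against Ic, 0 to 1 for Ia against Ib, 0 to 1 for Ib against Ic and 3 to 3 for glia-rich cells. One direction turned: the log2 difference of Sema3d in type Ia ran from -0.045 without stretch 5 to 1.18 without stretch 2. Of 29 called differences, 7 kept their call and stayed close in value under every alternative run. With 1 pool per genotype, spread between animals is unknown, and the intervals do not cover it.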

Other observations

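Ligand and receptor RNA were also read in the same cells. Whether joint shares differ from what the separate shares of the genes give was not tested. After thinning to 10000 UMIs, Efna5 was found in 94.1% and its receptor gene Epha5 in 73.9% of control type II neurons. In CKO type II neurons these shares were 92.1% and 78.3%. Efna5 and Epha5 were both found in 83 of 119 control type II neurons (69.7%, exact interval 60.7 to 77.8) and in 108 of 152 CKO type II neurons (71.1%, 63.2 to 78.1). The control type I classes held both in 2.48% to 4.05% of cells, although Epha5 alone was found in 58.3% to 61.8% of them. Efna5 and Epha4 were both found in 12.6% of control type II neurons. Sema7a and Plxnc1 were both found in 16.8% of control and 18.4% of CKO type II neurons, and in at most 0.781% of any type I class. Separately, Sema7a was found in 62.2% and Plxnc1 in 27.7% of control type II neurons, and in 54.6% and 34.2% in CKO. Sema3e and Plxna4 had the opposite pattern, with both in 42.6% to 55.7% of the control type I classes and 4.20% of control type II neurons. The plexin named above for Sema3e is Plxnd1, so its pair with Plxna4 describes levels and not binding.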
